A study of Mus musculus with 18 samples.

Results

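The genes described are Myc and 42 genes of ribosome biogenesis, 43 in all, taken as a named list. Of these, 42 had a probe set of their own on the array, out of 18193 genes measured. The exception was Mrto4, a ribosome assembly factor, whose probe set is annotated to 3 loci and was not used. Where a gene had several probe sets, the one with the highest mean signal on the 18 arrays stood for it. The cells were primary hepatocytes of male C57BL/6N mice aged 8 to 12 weeks, from 1 animal or a pool of up to 3, cultured on collagen I. They attached for 4 h, spent 24 h in serum-free medium with 100 nM dexamethasone and then 4 h in starvation medium before stimulation. Unstimulated cells gave 6 arrays, 1 before the start of stimulation (-5 h) and 5 after it (0, 4, 8, 12 and 24 h). Cells given the inflammatory cytokine IL-6 (40 ng/ml from 0 h) gave 4 arrays, taken hourly from 1 to 4 h. The remaining 8 were from cells that received HGF, which promotes hepatocyte growth, at 40 ng/ml on top of IL-6 from 4 h, and were taken hourly from 5 to 10 h and at 12 and 24 h. Each condition and hour was 1 array, so hours took the place of replicates. Whether different dishes held cells of different animals is not stated, so the p-values here reflect the spread among dishes and hours, which may be technical. Among the arrays used none had IL-6 alone after 4 h, so HGF and a longer time in IL-6 cannot be told apart.

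MYC is a transcription factor that binds DNA as a dimer with MAX and promotes cell growth. Many of the genes it activates serve the making of ribosomes: RNA polymerase I transcribes the ribosomal RNA precursor in the nucleolus, small nucleolar ribonucleoproteins (snoRNPs) guide its chemical modification, and assembly factors fold, cut and export the small and large subunits. In the liver this programme is known to be engaged when hepatocytes leave quiescence, as after partial hepatectomy, where IL-6 and HGF are among the early signals.

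The median log2 signal of an array ran from 5.47 to 5.57. Albumin, the main secreted protein of hepatocytes, lay between 14.67 and 14.89 on all arrays. The mean log2 level of 9 hepatocyte markers was 12.99 in the control at -5 h, 11.72 to 12.83 in the later controls, 12.68 to 12.86 with IL-6 and 11.23 to 12.56 with IL-6 plus HGF, with the lowest values at 24 h. Socs3, an IL-6 target, lay between 7.12 and 7.60 in the 6 controls and between 9.45 and 11.09 in the 12 stimulated arrays. The arrays at 24 h and the IL-6 plus HGF array at 10 h had the lowest mean correlation with the others, at 0.986 for the control, 0.985 for IL-6 plus HGF at 24 h and 0.987 at 10 h. Malat1, a nuclear long non-coding RNA, was at 11.52 in the control at 0 h, at 9.35 to 9.81 in the controls at 4 to 24 h, at 11.24 to 11.65 with IL-6 and between 9.16 (6 h) and 12.68 (10 h) with IL-6 plus HGF. In these bulk samples, fewer cells of a type and less RNA per cell cannot be told apart.

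RefSeq promoter windows of GRCm38.p6, from 250 bases before to 50 bases after the start, were searched for CACGTG, the canonical E-box bound by MYC and MAX dimers, which reads the same on both strands. An entry was found for 36 of the 42 members and not for Myc, Rrp12, Rrs1, Npm1, Fbl and Bop1. The motif occurred in the windows of 7 members, 19.4% of those matched: Nop2, Pes1, Wdr43, Utp20, Pno1, Tsr1 and Ltv1. Among the 14452 genes of the array with an entry the share was 10.2%, and among all 32851 windows it was 7.15%. A related form, CACGCG on either strand, occurred in 11 of the 36 members (30.6%), 16.2% of the array's genes and 9.27% of all windows. Of the 11 members that passed a test in any comparison, 10 had an entry and 2 held CACGTG. Their windows are shown because these members moved with time or stimulus, with the motif in capitals. The Tsr1 window lies at chr11:74897830-74898129 on the plus strand, with the motif beginning at position 25, counting the start base as position 1. The Nop2 window lies at chr6:125131633-125131932 on the plus strand, with the motif beginning at position -60. A match describes these letters only and is not evidence of binding.
Tsr1: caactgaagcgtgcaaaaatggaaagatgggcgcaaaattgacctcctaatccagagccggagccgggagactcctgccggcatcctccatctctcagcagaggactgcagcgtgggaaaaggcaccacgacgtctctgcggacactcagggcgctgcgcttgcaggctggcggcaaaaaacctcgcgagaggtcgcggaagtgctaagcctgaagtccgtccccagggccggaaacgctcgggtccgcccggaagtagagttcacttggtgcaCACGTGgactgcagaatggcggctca
Nop2: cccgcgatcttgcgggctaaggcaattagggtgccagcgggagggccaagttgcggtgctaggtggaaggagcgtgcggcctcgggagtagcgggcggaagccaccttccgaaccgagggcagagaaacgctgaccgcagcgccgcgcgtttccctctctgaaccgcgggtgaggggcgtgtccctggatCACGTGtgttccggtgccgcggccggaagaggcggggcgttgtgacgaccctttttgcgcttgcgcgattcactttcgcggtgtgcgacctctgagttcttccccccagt

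In unstimulated cells most members were highest at 0 h and lowest at 24 h. Relative to the control at 0 h, the median member changed by -0.14 log2 at 4 h, -0.25 at 8 h, -0.30 at 12 h and -0.41 at 24 h, while the median of all genes stayed between -0.03 and 0.03. The highest of the 5 controls was at 0 h for 31 of the 42 members, against 26.7% of all genes, and the lowest was at 24 h for 34, against 33.7%. On the log2 of hours plus 1, slopes were negative for 40 members, with a median of -0.10 log2 per doubling against -0.0019 over all genes. In the limma fit 6 members fell and 0 rose, against a background of 3.61% of all genes called, 1.47% falling and 2.14% rising. The first 4 h held part of the change, -0.14 of the -0.41 reached at 24 h. The control at 0 h was above that at 4 h for 31 members, against 49.4% of all genes. These were the same 31 that were highest at 0 h.

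**Figure D1:**
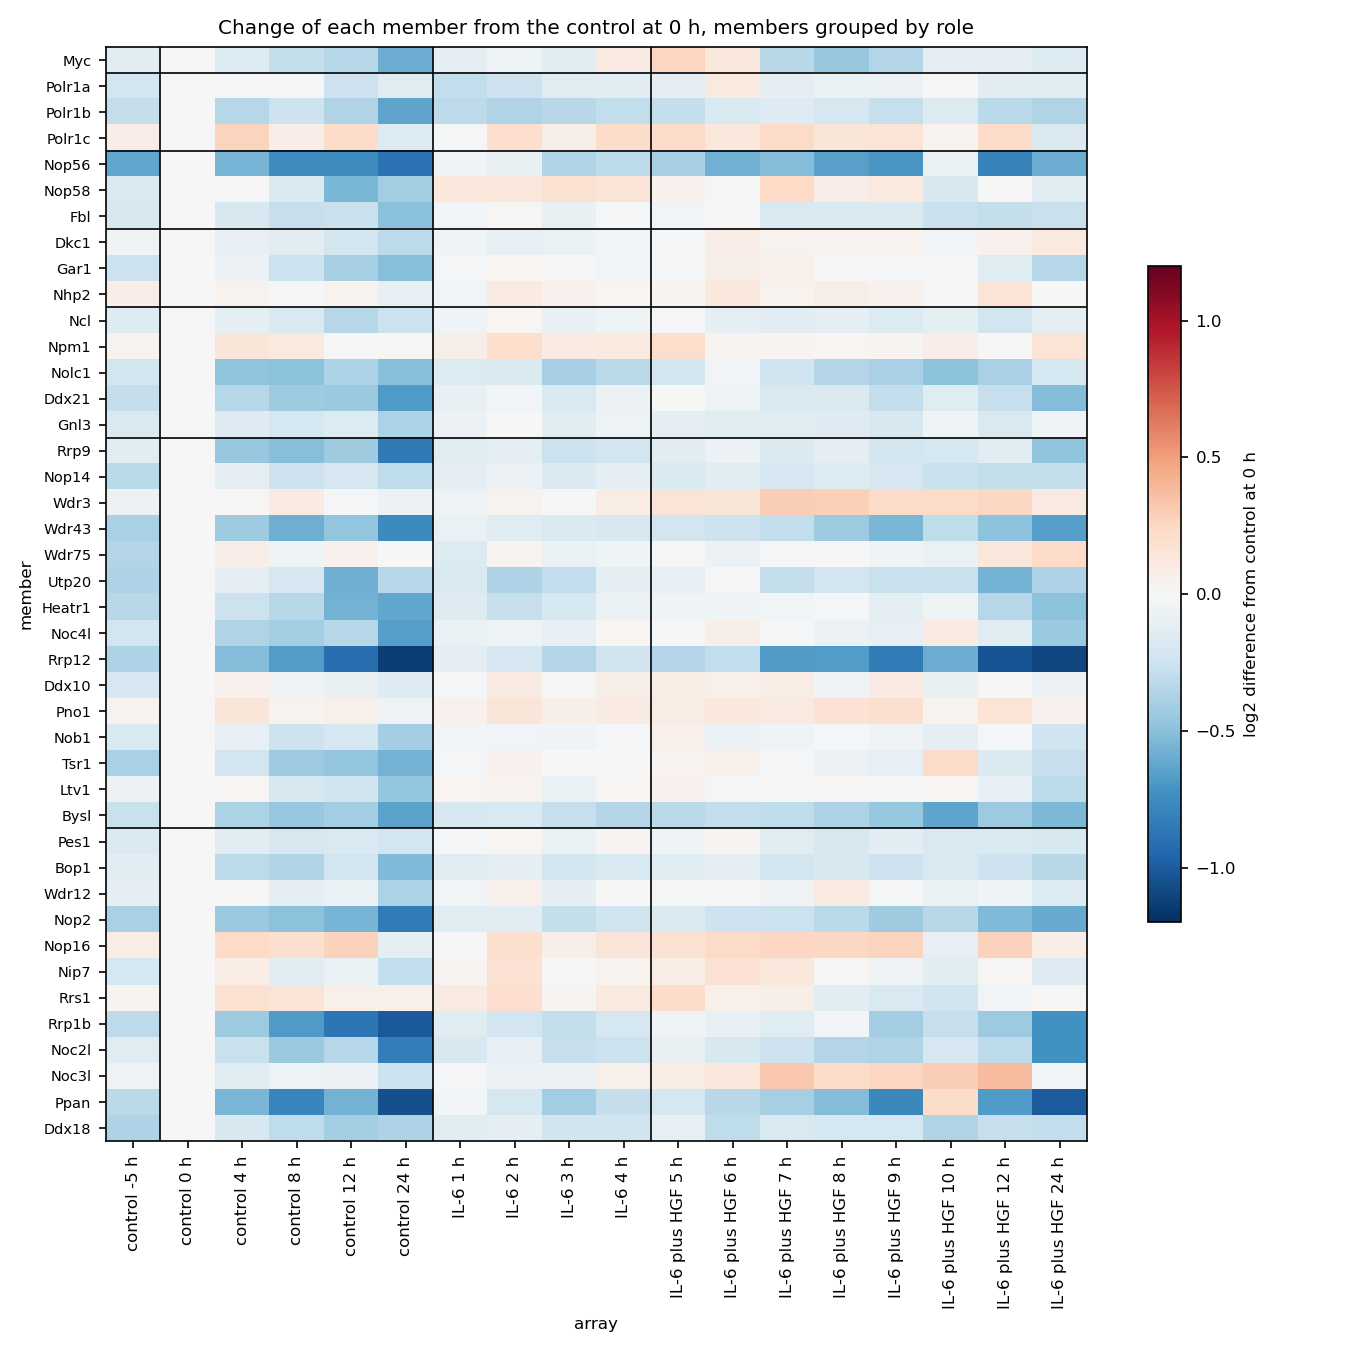
Heat map of the log2 difference of each of the 42 members (rows, grouped by role and divided by lines) from the control at 0 h on each of the 18 arrays (columns, grouped by condition). Blue deepens along the controls from 4 to 24 h, with Rrp12, Ppan and Rrp1b the deepest at 24 h (-1.13, -1.05 and -1.01).

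The members that fell in control came from several steps of ribosome making. Rrp12, which acts in the maturation and export of pre-ribosomes in yeast, read 8.42, 7.89, 7.75, 7.51 and 7.29 log2 at 0, 4, 8, 12 and 24 h. Each array was below the one before, a 2.19-fold fall over the day. Its slope was -0.24 ± 0.03 (SE; limma, adjusted p = 0.0178). Rrp1b, the homolog of a large-subunit processing factor of yeast, read 8.98, 8.55, 8.30, 8.12 and 7.97, also lower at every step, and was 2.02-fold lower at 24 h than at 0 h (slope -0.22 ± 0.03, limma adjusted p = 0.02). Ppan, a large-subunit factor, read 9.60, 9.06, 8.82, 9.03 and 8.55. The fall was not stepwise, since 12 h lay above 8 h, and the slope was -0.21 ± 0.04 (limma, adjusted p = 0.0419). Nop2, a methyltransferase of large-subunit ribosomal RNA, read 10.21, 9.76, 9.71, 9.65 and 9.37, with the largest step between 0 and 4 h and a slope of -0.17 ± 0.03 (limma, adjusted p = 0.0356).

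Nop56, a core protein of the box C/D snoRNPs that guide ribose methylation, read 11.79, 11.23, 11.04, 11.03 and 10.90 in control, 1.85-fold lower at 24 h than at 0 h. The largest step lay between 0 and 4 h. Its slope was -0.20 ± 0.03 (limma, adjusted p = 0.0265). Ddx21, an RNA helicase of the nucleolus that acts in ribosomal RNA transcription and processing, read 10.55, 10.21, 10.13, 10.11 and 9.87 (slope -0.14 ± 0.03, limma adjusted p = 0.0495). The small-subunit factor Wdr43 lay just outside the threshold, with a slope of -0.15 ± 0.03 (limma, adjusted p = 0.05003). Among the members that did not pass, the abundant nucleolar protein gene Npm1 read 12.99, 13.14, 13.11, 12.97 and 13.00, with a slope of -0.00083 and an interval of -0.07 to 0.07. Rrs1, a large-subunit factor, and Nop16 were the members with slopes above 0, at 0.01 and 0.00052.

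Myc itself read 10.51, 10.35, 10.22, 10.17 and 9.92 log2 in the controls at 0 to 24 h. Every array was lower than the one before, and 24 h was 1.51-fold lower than 0 h. Its slope of -0.12 ± 0.03 did not pass (limma, adjusted p = 0.0786), while a slope on hours rather than their logarithm did (limma, adjusted p = 0.0335). By role, all 15 small-subunit factors had negative slopes (median -0.10), as had the 3 box C/D proteins (median -0.11), the 3 box H/ACA proteins (-0.07), the 3 RNA polymerase I subunits (-0.04), and the 5 nucleolar proteins and snoRNP chaperones (-0.07). Of 12 large-subunit factors, 10 were negative (median -0.08).

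The 6 calls in control rested on 5 arrays. Leaving out the array at 0, 4 or 8 h left 0 members called, and leaving out 12 h or 24 h left 3. Hepatocyte markers moved with these members: 8 of 9 had negative control slopes and 1, the liver enzyme Tat, passed. Of the Kupffer markers 11 of 14 were negative and 1 passed, with a mean log2 level of 6.90 to 7.50 over the 5 controls. Of the stellate and fibroblast markers 7 of 10 were positive and 2 passed as rising, 1 of 10 endothelial and 1 of 5 cholangiocyte genes passed as falling, and 0 of 6 lymphocyte and 0 of 2 erythroid genes passed. Malat1 also was highest at 0 h, where most members were highest, at 11.52 against 9.35 to 9.81 later, and Neat1 was at 11.14 against 8.10 to 10.05. Their slopes were -0.42 and -0.52 and did not pass (limma, adjusted p = 0.0838 and 0.228). The part of these markers and nuclear RNAs in the members' fall was not tested.

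The control at -5 h, before the starvation step by the hours of the protocol, lay below the control at 0 h for 36 of 42 members, against 48.2% of all genes. The median change from the 0 h array was -0.20 log2. Against the 5 later controls 0 members were called (limma; 1 at an unadjusted p under 0.05), and the background was 0% of all genes. The largest differences were in Wdr75, a small-subunit factor, at -0.37 (9.17 against 9.54 ± 0.05, SD, n = 5), Rrp9, at 0.31, and Rrp1b, at 0.29. Other probe sets did not share those of Wdr75 and Rrp1b. The other probe set of Wdr75, with a low mean log2 signal of 4.50, differed by 0.24. Those of Rrp1b differed by -0.05 and 0.04. With 1 array at -5 h, its spread was taken from the later controls.

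With IL-6 alone the members' median lay between those of the controls at 0 and 4 h. Over the 4 IL-6 arrays the median change from the control at 0 h ran from -0.10 to -0.04, against -0.14 in the control at 4 h. The control at 4 h was below all 4 IL-6 arrays for 22 of 42 members (background 23.2%), and the control at 0 h was above all of them for 20 (background 25.4%). For 12 members, Rrp1b, Rrp9, Rrp12, Nop2, Nop56, Nolc1, Bop1, Wdr43, Ddx21, Ppan, Bysl and Nob1, all IL-6 arrays lay between the controls at 0 and 4 h with 0 h the higher, against 6.8% of all genes. At 4 h, the hour shared by both conditions, the IL-6 array was above control for 30 members, with a median difference of 0.07, against 45.8% of all genes. That difference has no replicate. In the same pair Malat1 was higher with IL-6 by 2.03 log2 and Neat1 by 2.22, and their part in the members' order was not tested. With their mean as a covariate in the fit of IL-6 against both early controls, the member median was -0.0073, against 0.02 without it. With or without the covariate 0 members were called, so that count does not bear on their part.

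Set against the controls at 0 and 4 h together, IL-6 alone called 0 of 42 members in the limma fit (1 at an unadjusted p under 0.05), where 0.022% of all genes passed. The fit took its spread from 17 arrays in 4 cells, including later controls and IL-6 plus HGF arrays, with 13 residual degrees of freedom. Change with time within a cell thus counted as spread. The median member difference was 0.02, with 25 members positive and 17 negative. Its sign was not stable: it was -0.06 without the control at 4 h, 0.07 without that at 0 h, -0.0028 when the 2 h array of IL-6 was left out, and 0.13 against all 5 controls. Myc read 10.40, 10.46, 10.38 and 10.61 at 1, 2, 3 and 4 h of IL-6, which overlapped the controls at 10.51 and 10.35. Its difference was 0.03 with a 95% interval of -0.31 to 0.37 (limma, adjusted p = 1).

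The largest differences with IL-6 were in genes of the RNA polymerase I and small-subunit groups. Polr1a, the largest subunit of RNA polymerase I, read 8.50, 8.54, 8.64 and 8.66 with IL-6 against 8.79 and 8.78 in control, without overlap, a difference of -0.20 ± 0.09 (SE; limma, adjusted p = 1). Utp20, a small-subunit processome protein, read 9.35, 9.16, 9.23 and 9.41 against 9.53 and 9.42, a difference of -0.19 ± 0.13. Polr1b, the second-largest subunit, read 8.76, 8.71, 8.74 and 8.77 against 9.07 and 8.73, so that the IL-6 arrays overlapped the 4 h control. Nop58, the partner of Nop56 in box C/D snoRNPs, was higher in all 4 IL-6 arrays (10.91, 10.92, 10.97 and 10.94) than in both controls (10.78 and 10.78), a difference of 0.15 that did not pass. Kupffer markers were lower with IL-6 in 13 of 14 cases, with 0 passing (9 at an unadjusted p under 0.05). Their mean log2 level was 6.85 to 7.01 with IL-6, 7.50 in the control at 0 h, 7.31 in that at 4 h and 6.90 in that at -5 h, which lay within the IL-6 range. Whether they bear on the members was not tested.

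**Figure D2:**
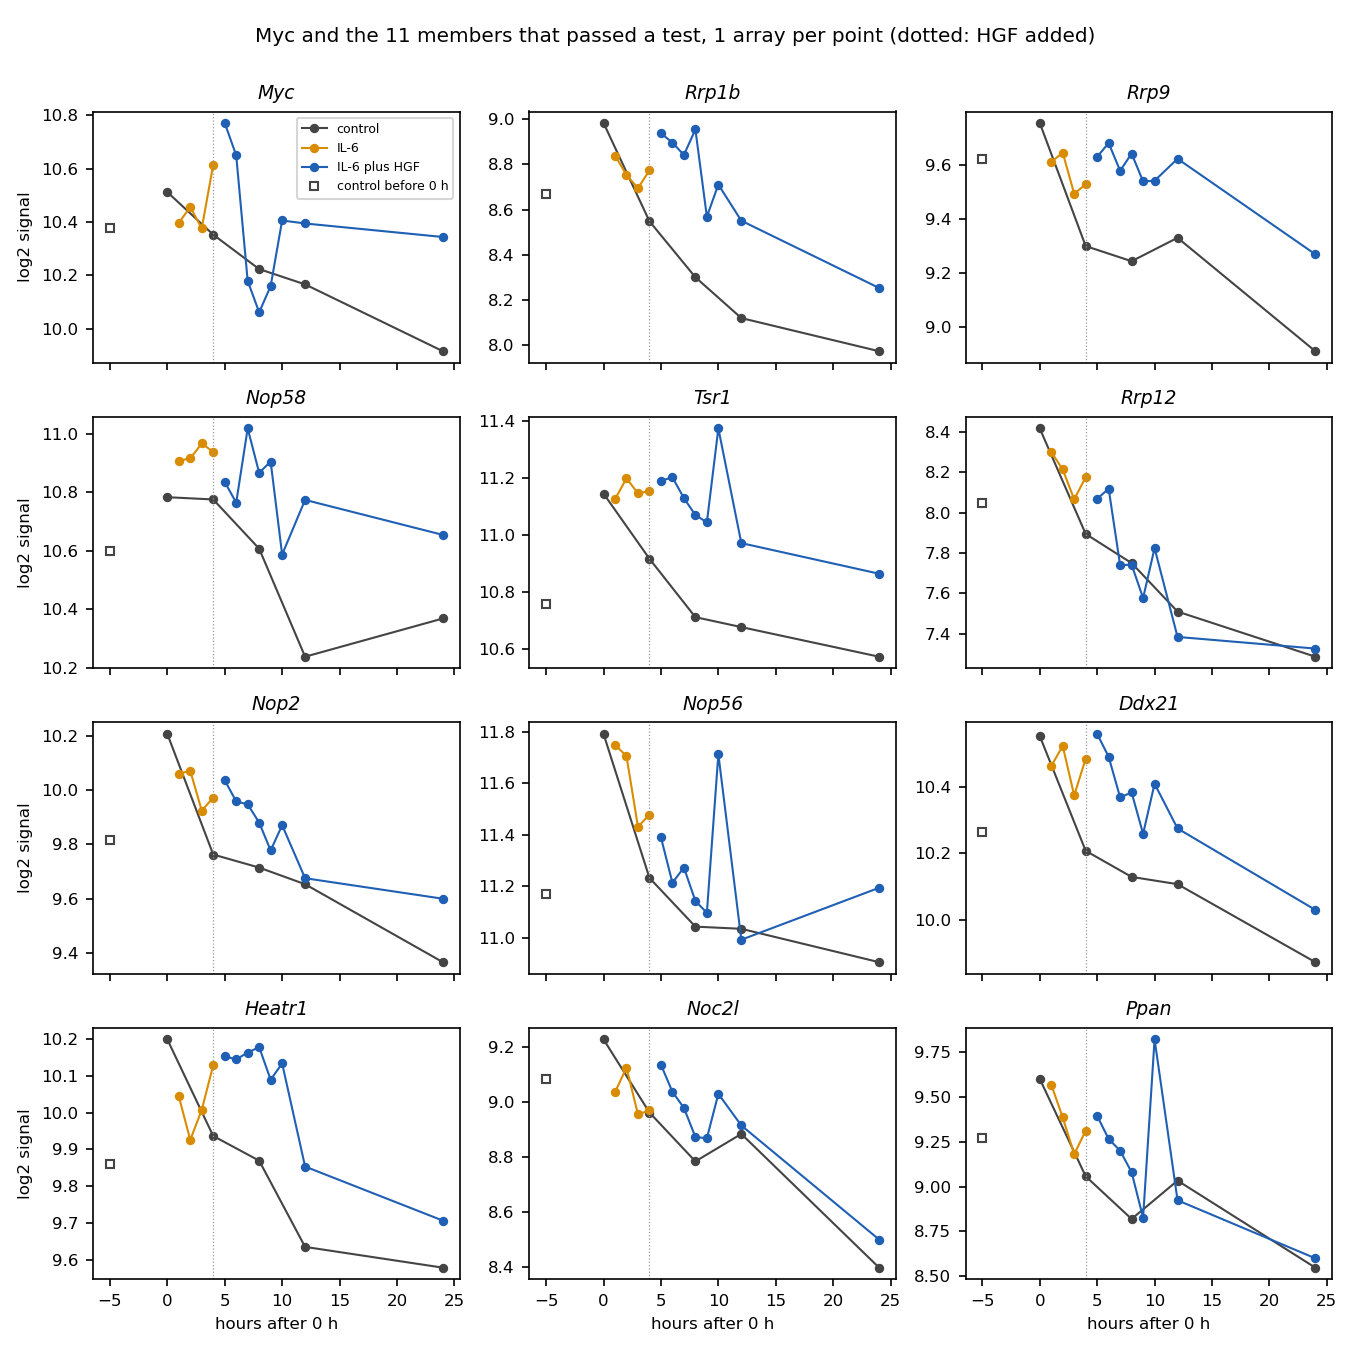
Log2 signal of Myc and the 11 members that passed a test (panels) by hour, with 1 array per point. Controls are grey, IL-6 orange and IL-6 plus HGF blue, the open square is the control at -5 h, and the dotted line at 4 h marks the addition of HGF. The IL-6 plus HGF arrays of Rrp1b, Rrp9 and Tsr1 at 8, 12 and 24 h lie above the controls of the same hour, and those of Rrp12 run along them.

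In the first 3 hours after HGF the members stayed near their IL-6 levels. IL-6 plus HGF at 5 to 7 h against IL-6 alone gave 0 calls among the 42 members in the limma fit (2 at an unadjusted p under 0.05), where 0.291% of all genes passed (0.0989% higher and 0.192% lower), and a median difference of 0.02, which was -0.0014 without the array at 5 h. Myc read 10.77 at 5 h and 10.65 at 6 h, above all 4 IL-6 arrays, and 10.18 at 7 h, below them all. Its mean difference was 0.07, with an interval of -0.19 to 0.34 (limma, adjusted p = 0.894). The 5 h value was the highest of Myc on the 18 arrays.

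All 3 arrays at 5 to 7 h lay above all 4 IL-6 arrays for 7 members, Rrp1b, Dkc1, Polr1a, Polr1b, Wdr3, Heatr1 and Noc3l (background 7.87%), and below them for Nop56 and Wdr43 (background 6.59%). Nop56 read 11.39, 11.21 and 11.27 at 5, 6 and 7 h against 11.75, 11.70, 11.43 and 11.48 with IL-6, a difference of -0.30 ± 0.16 (SE; limma, adjusted p = 0.506). Rrp12 read 8.07, 8.12 and 7.74 against 8.30, 8.21, 8.07 and 8.18, which overlapped, with a difference of -0.21. Noc3l, the homolog of a yeast factor that accompanies large-subunit precursors, read 8.79, 8.83 and 9.03 against 8.69, 8.63, 8.63 and 8.76. The 2 groups of arrays did not overlap, and the difference was 0.21 ± 0.07 (limma, adjusted p = 0.274).

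At 8, 12 and 24 h, the hours measured in both conditions, most members were higher with IL-6 plus HGF than in control. The differences were small: the median member was higher by 0.12 log2 over the 3 pairs, against 0.01 for all genes, and 39 of 42 members had a positive fitted difference, against 52.6% of all genes. The median was 0.12 at 8 h with 35 members above control, 0.08 at 12 h with 31 and 0.16 at 24 h with 39. IL-6 plus HGF was above control in all 3 pairs for 25 members, against 23.6% of genes, and below in all 3 for Rrs1 alone, against 24.6%. Over the 4 IL-6 plus HGF arrays at 8 to 12 h, every array was above both controls at 8 and 12 h for 11 members, against 14.2% of genes.

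Of the 42 members, 4 were called higher and 0 lower in the limma fit with hour as a block, which is 9.52% of members against 9% of all genes in either direction. Among all genes 2.53% were higher and 6.46% lower. The called members were Rrp1b, Nop58, Rrp9 and Tsr1, which act in the large subunit, in box C/D snoRNPs, in the U3 snoRNP and in the late small subunit.

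Rrp1b read 8.95, 8.55 and 8.25 log2 at 8, 12 and 24 h with IL-6 plus HGF against 8.30, 8.12 and 7.97 in control. The groups overlapped across hours, but the stimulated array was higher within each pair, by 0.65, 0.43 and 0.28. The difference was 0.46 ± 0.09 (SE), a 1.37-fold higher level (limma, adjusted p = 0.0329). Nop58 read 10.87, 10.77 and 10.65 with IL-6 plus HGF against 10.61, 10.24 and 10.37, without overlap, a difference of 0.36 ± 0.09 (limma, adjusted p = 0.04999) and thus just inside the threshold.

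Rrp9, a protein of the U3 snoRNP, which is needed for the early cuts of small-subunit ribosomal RNA, read 9.64, 9.62 and 9.27 with IL-6 plus HGF against 9.24, 9.33 and 8.91. Only the stimulated array at 24 h fell within the range of the controls. The difference was 0.35 ± 0.07, or 1.27-fold (limma, adjusted p = 0.035). Tsr1, a factor bound to late small-subunit precursors in the cytoplasm and 1 of the 2 members shown with CACGTG in the promoter window, read 11.07, 10.97 and 10.86 against 10.71, 10.68 and 10.57. The groups did not overlap, and the difference was 0.31 ± 0.07, or 1.24-fold (limma, adjusted p = 0.0458).

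Noc3l, at 0.32 ± 0.08, was the nearest member outside the threshold (limma, adjusted p = 0.0552). Next came Dkc1, the pseudouridine synthase of box H/ACA snoRNPs, which read 10.79, 10.81 and 10.88 with IL-6 plus HGF against 10.62, 10.54 and 10.45 in control. Its arrays did not overlap and its pair differences rose from 0.17 at 8 h to 0.43 at 24 h, with a mean of 0.29 ± 0.08 (limma, adjusted p = 0.0822). Myc was lower with IL-6 plus HGF than in control at 8 h (10.06 against 10.22) and higher at 12 h (10.39 against 10.17) and 24 h (10.34 against 9.92). Its mean difference was 0.16, with an interval of -0.12 to 0.45 (limma, adjusted p = 0.438), and it was 0.33 without the pair at 8 h and 0.03 without that at 24 h.

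By role, the median difference was 0.23 for the 3 box H/ACA proteins, 0.12 for the 15 small-subunit factors, 0.12 for the 3 box C/D proteins, 0.12 for the 5 nucleolar proteins and chaperones, 0.11 for the 12 large-subunit factors and 0.02 for the 3 RNA polymerase I subunits. The members with negative differences were Rrs1 (-0.14), Rrp12 (-0.03) and Utp20 (-0.01). The interval of Rrp12 was -0.21 to 0.15 and that of Utp20 was -0.18 to 0.16. The abundant nucleolar genes Ncl and Npm1 differed by 0.11 and 0.02, and Fbl, the methyltransferase of box C/D snoRNPs, by 0.11, none of which passed.

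**Figure D3:**
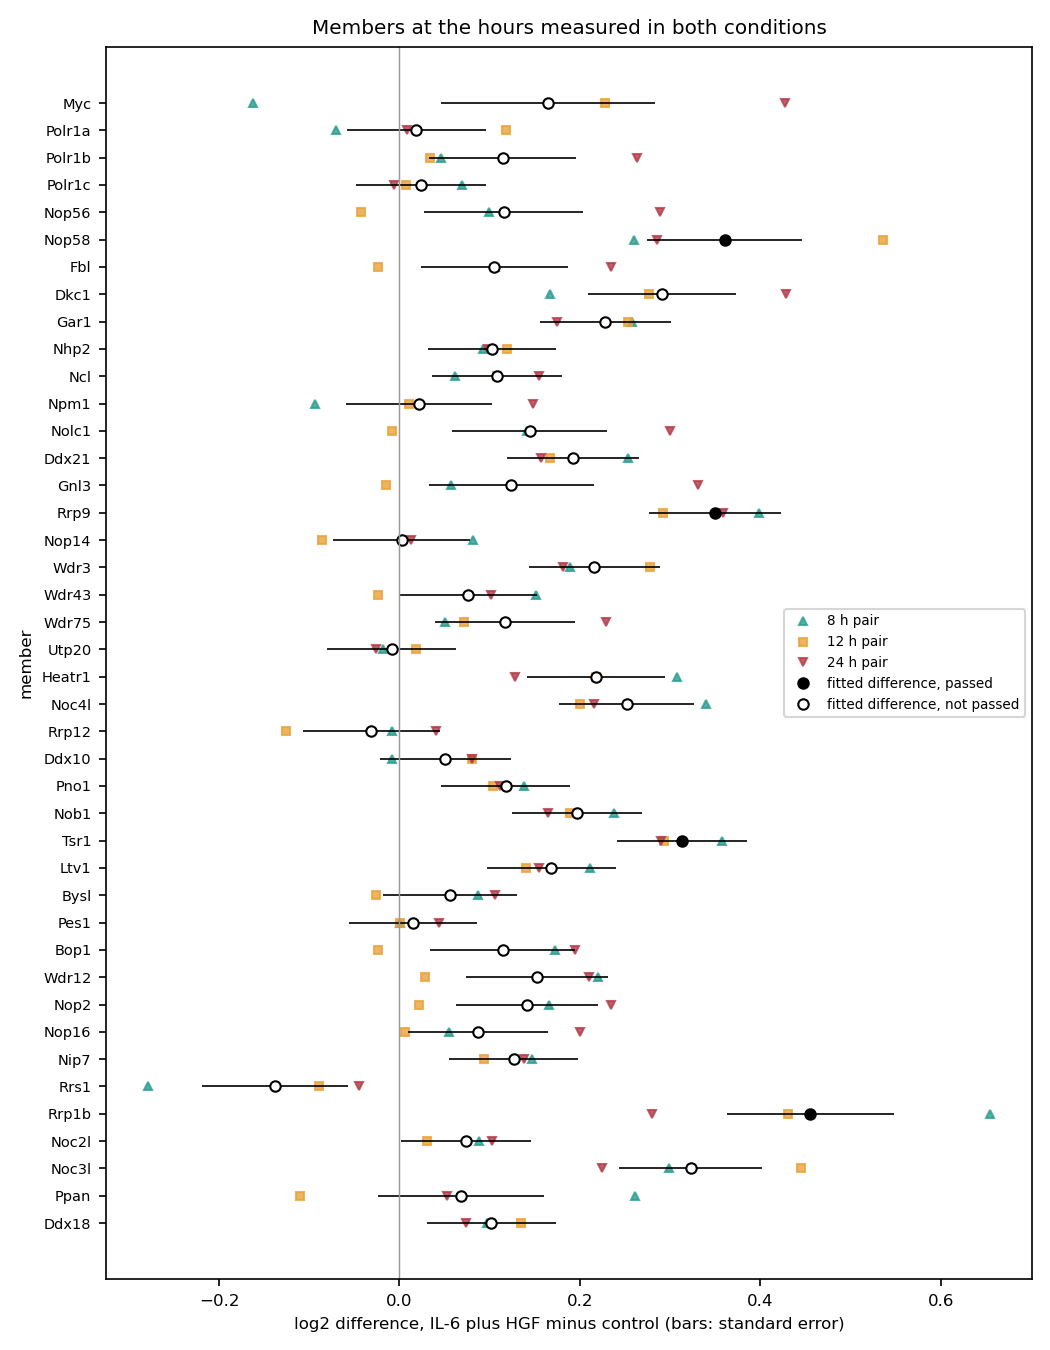
Log2 difference of IL-6 plus HGF minus control for each of the 42 members (rows, ordered by role). Coloured symbols are the single pairs at 8, 12 and 24 h, circles are the fitted difference with its standard error, and filled circles passed. The 4 filled circles lie between 0.31 and 0.46, and 39 of the 42 circles lie above 0.

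The 4 calls rested on 3 pairs and 2 residual degrees of freedom. Leaving out the pair at 8 h or at 12 h left 0 members called and leaving out 24 h left 1, and without the hour as a block 0 were called. The mean over 4 cells of 17 arrays called 12 members higher. Malat1 was also higher with IL-6 plus HGF at these hours, by 1.56 ± 0.21 (limma, adjusted p = 0.00901). The mean of the nuclear RNAs Malat1 and Neat1 was used as a covariate in a fit of cell means over 15 arrays, without those at 24 h. In it 0 members were called and the median difference was 0.06. That fit differed from the fit of 3 pairs in its arrays and model too, so their results cannot be compared for the part of the covariate. The same cell means were also fitted without the covariate, a result not given here. On the IL-6 plus HGF array at 6 h, where Malat1 was at 9.16, the median member was at -0.02 from the control at 0 h. No control was taken at 6 h, so this is not a difference between conditions at 1 hour. The mean of Malat1 and Neat1 was 8.56 on that array and 8.87 in the control at 4 h. In that control the median member was at -0.14. Hepatocyte markers differed the other way: 4 of 9 were called lower and 1 higher. Of the other cell types' markers, 1 of 14 Kupffer and 1 of 10 endothelial genes were called lower, 1 of 5 cholangiocyte genes was called higher, and 0 of 10 stellate and fibroblast, 0 of 6 lymphocyte and 0 of 2 erythroid genes were called. The part of these markers in the members' differences was not tested.

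**Figure D4:**
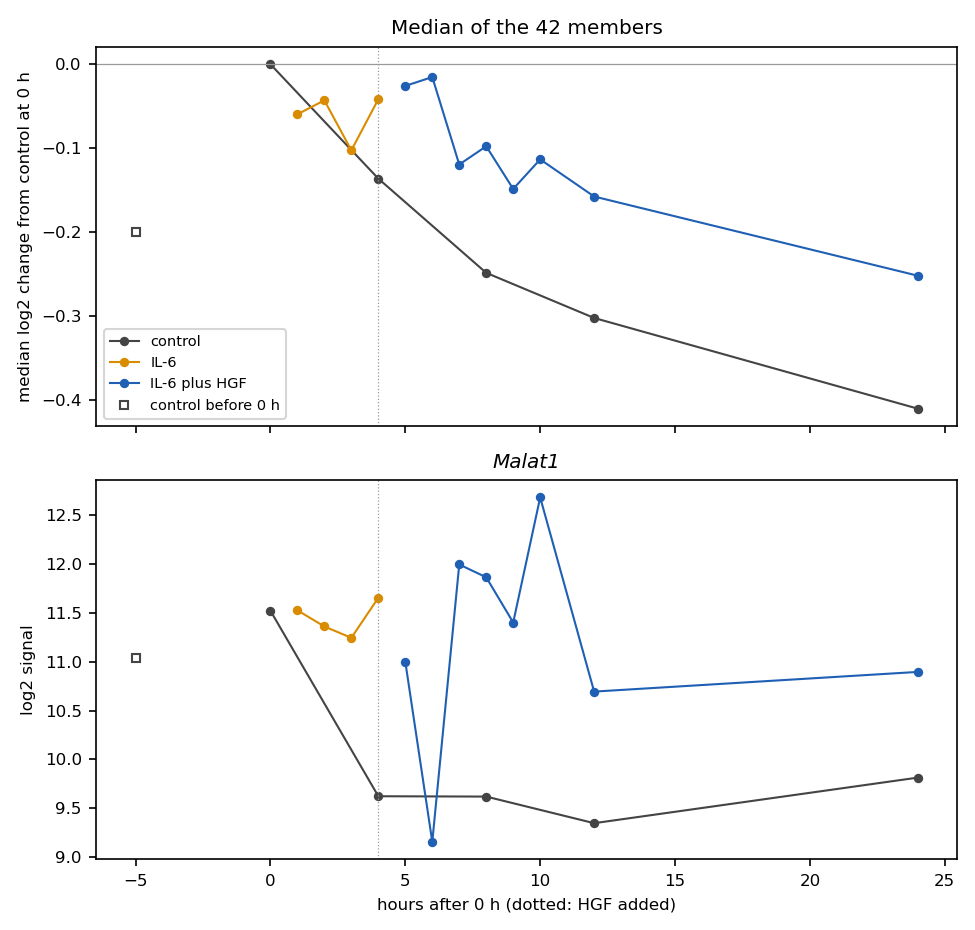
Median log2 change of the 42 members from the control at 0 h (upper panel) and log2 signal of Malat1 (lower panel) by hour, with 1 array per point and the dotted line at 4 h marking HGF. The median falls to -0.41 in control and -0.25 with IL-6 plus HGF at 24 h. Malat1 is low in the controls from 4 h and on the IL-6 plus HGF array at 6 h. The member median is -0.14 in the control at 4 h and -0.02 on that 6 h array.

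Under IL-6 plus HGF the members also declined with time. The median change from the control at 0 h was -0.03 at 5 h, -0.02 at 6 h, -0.12 at 7 h, -0.10 at 8 h, -0.15 at 9 h, -0.11 at 10 h, -0.16 at 12 h and -0.25 at 24 h. Slopes on log2 hours were negative for 38 of 42 members (median -0.10, against -0.01 over all genes). In the limma fit 6 members fell and 0 rose, against 4.84% of all genes falling and 6.27% rising. The array at 24 h was the lowest of the 8 for 23 members (background 25.8%), and the highest lay at 5 to 7 h for 27 (background 33.1%).

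Rrp12 had the steepest slope, with 7.33, 7.74 and 8.12 as the lowest, median and highest of its 8 arrays. It was 1.67-fold lower at 24 h than at 5 h, with a slope of -0.36 ± 0.08 log2 per doubling of hours (SE; limma, adjusted p = 0.0149). Rrp1b ranged from 8.25 through a median of 8.78 to 8.95, and was 1.61-fold lower at 24 h than at 5 h. The arrays at 5 to 8 h lay at 8.84 or above and the later ones at 8.71 or below, and the slope was -0.32 ± 0.06 (limma, adjusted p = 0.00725).

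Noc2l, the homolog of a yeast large-subunit factor, ranged from 8.50 through 8.95 to 9.14, with 24 h standing below the other 7 arrays (slope -0.25 ± 0.06, limma adjusted p = 0.0202). The slope was -0.15 without the 24 h array and -0.16 over the mean of all its probe sets, and passed in neither. Heatr1, a small-subunit processome protein that also acts in ribosomal DNA transcription, ranged from 9.71 through 10.14 to 10.18. Its 6 arrays at 5 to 10 h lay at 10.09 or above and only those at 12 and 24 h were lower. The slope was -0.22 ± 0.06 (limma, adjusted p = 0.0301). Ddx21 ranged from 10.03 through 10.38 to 10.56 (slope -0.22 ± 0.05, limma adjusted p = 0.0195). Nop2 ranged from 9.60 through 9.88 to 10.04 (slope -0.20 ± 0.05, limma adjusted p = 0.0258). In both genes the highest array was at 5 h and the lowest at 24 h.

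Ppan had a slope of -0.31 ± 0.15 that did not pass (limma, adjusted p = 0.24). Its 8 arrays ran from 8.60 at 24 h to 9.82 at 10 h. Over all 18 arrays Ppan ran from 8.55 to 9.82, the widest range of any member. The members with positive slopes were Wdr75 (0.13), Dkc1 (0.04), Gnl3 (0.03), a nucleolar GTP-binding protein, and Npm1 (0.01). Myc had a slope of -0.12 with an interval of -0.37 to 0.13 (limma, adjusted p = 0.618), which was -0.0057 without the array at 5 h and -0.32 without that at 24 h. Its 8 arrays had no single direction, with 10.77 at 5 h, 10.06 at 8 h and 10.41 at 10 h. The array at 10 h was the highest of the 8 for Nop56 (11.71), Tsr1 (11.37), Ppan and Noc4l (background 18.4%), and the lowest for 11 members (background 22.3%).

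The calls under IL-6 plus HGF depended on the array at 24 h: without it 0 members were called, and without the array at 10 h 12 were. Heatr1 also lost its call without any 1 of the arrays at 6, 7, 8, 9 and 12 h, Nop2 without any 1 of those at 5, 6, 7 and 8 h, and Ddx21 and Noc2l without that at 5 h. Over the same arrays 9 of 9 hepatocyte markers had negative slopes and 7 passed, among them Cps1, a urea-cycle enzyme, at -1.86 log2 per doubling. Of the other cell types' markers, 1 of 14 Kupffer genes rose and 2 fell, 2 of 10 stellate and fibroblast genes rose and 1 fell, and 1 of 5 cholangiocyte genes rose and 1 fell. A further 2 of 10 endothelial genes and 1 of 2 erythroid genes fell, and 0 of 6 lymphocyte genes passed. The part of these markers in the members' decline was not tested.

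The 2 time courses were set against each other by testing the difference of slopes over the hours from 4 h. None of the 42 members passed in the limma fit (0 at an unadjusted p under 0.05), where 0.0989% of all genes did (0.0385% with a higher and 0.0605% with a lower slope), and the median difference was -0.0005 with 20 members positive and 22 negative. The largest were Wdr75, at 0.15 with an interval of -0.0045 to 0.30, Ppan, at -0.14 with an interval of -0.56 to 0.28, and Dkc1, at 0.13 with an interval of -0.0074 to 0.26. For Rrp1b the difference was -0.10 (interval -0.27 to 0.08) and for Myc 0.05 (interval -0.27 to 0.36). These intervals leave room for differences as large as many of the slopes themselves.

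**Figure D5:**
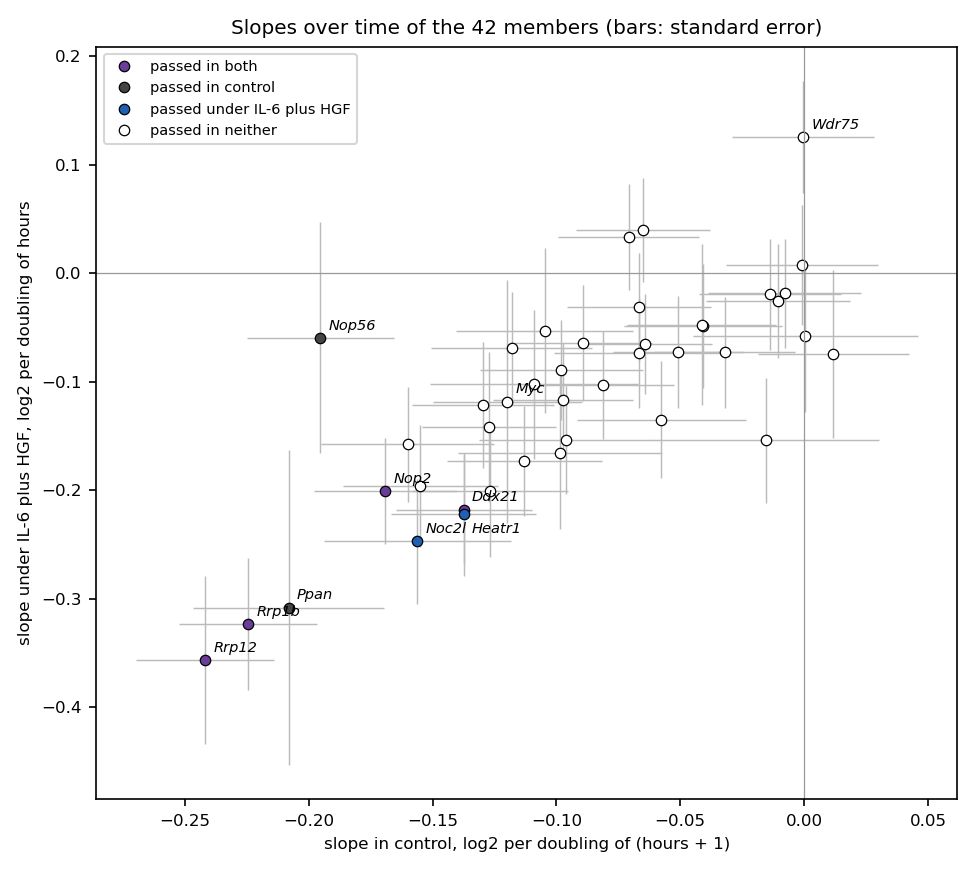
Slope over time of each of the 42 members in control (horizontal axis, log2 per doubling of hours plus 1) and under IL-6 plus HGF (vertical axis, log2 per doubling of hours), with standard errors as bars and colour showing where a slope passed. Rrp12, Rrp1b, Nop2 and Ddx21 passed in both and lie at the lower left, and Wdr75 has the highest slope under IL-6 plus HGF (0.13). The axes use different time variables.

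Genes around the members were counted from lists. Of 83 other ribosome assembly factors, Las1l and Nol10 were called higher at matched hours and 0 lower, with a median of 0.06. Las1l, an endonuclease that cuts the ribosomal RNA precursor on the way to the large subunit, was at 11.03 ± 0.17 (SD, n = 3) with IL-6 plus HGF and 10.06 ± 0.13 in control, 1.96-fold higher (limma, adjusted p = 0.00706). This was larger than any member's difference at those hours. Those 2 of 83 compare with 2.53% of all genes called higher. Under IL-6 plus HGF 10 of the 83 fell with time, the steepest being Riok3 (-0.37) and Eif6 (-0.31), against 4.84% of all genes falling. Another 2 rose, Las1l (0.26) and Exosc8 (0.20), against 6.27% of all genes. In control 1 of the 83, Rrp8, fell, against 1.47% of all genes.

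Among 15 further genes of RNA polymerase I transcription 0 were called at matched hours (limma; 3 at an unadjusted p under 0.05). Taf1b and Taf1d, subunits of its selectivity factor, differed by -0.27 and 0.24. Among 44 ribosomal protein genes with a probe set of their own, 0 were called (2 at an unadjusted p under 0.05), with a median of 0.00, and the largest values were those of Rpl12 (0.54) and Rps25 (0.26). Slopes of ribosomal proteins were positive for 37 of 44 in control, against 48.7% of all genes, and for 40 of 44 under IL-6 plus HGF, against 45.6%. Rpl41 and Rps14 passed under IL-6 plus HGF, 4.55% of the list against 6.27% of all genes rising, and 0 passed in control (limma; 3 at an unadjusted p under 0.05).

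In the list of 19 MYC network partners and antagonists, 1 gene was called higher and 1 lower at matched hours. This was 10.5% of the list, against 9% of all genes. Max, the dimer partner of MYC, was higher by 0.34 ± 0.07 (SE, limma adjusted p = 0.0386). Mycl, a paralog of Myc, was lower by 1.64-fold, at 6.71 ± 0.16 (SD, n = 3) against 7.43 ± 0.20 (limma, adjusted p = 0.00494). Mxd4 and Mxi1, repressors that compete with MYC for MAX, rose with time in control, by 0.30 and 0.18 log2 per doubling, and under IL-6 plus HGF, by 0.36 and 0.27. In control, Mxd4 read 7.61, 8.38, 8.55, 8.88 and 8.96 at 0 to 24 h, higher at every step. Mybbp1a, a MYB-binding nucleolar protein, fell in both courses. Of the 19 genes, 2 rose and 2 fell in control, 21.1% against 3.61% of all genes. Under IL-6 plus HGF 3 rose and 3 fell, 31.6% against 11.1% of all genes. Of 36 MYC targets outside the ribosome, 1 was called higher and 1 lower at matched hours, 5.56% against 9% of all genes. Slc7a5, an amino acid transporter, was 1.45-fold higher (limma, adjusted p = 0.00918). Shmt1, of serine and folate metabolism, was 1.37-fold lower (limma, adjusted p = 0.0421). Under IL-6 plus HGF 4 of the 36 rose with time and 5 fell, 25% against 11.1% of all genes. In control 0 rose and 2 fell, 5.56% against 3.61% of all genes.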

How the data were processed

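One-colour Affymetrix arrays of 45101 probe sets measured RNA in 18 samples of mouse hepatocytes. The deposited values were log2 signals, per the labels, and the sources used here do not give how they were summarized and normalized. They ran from 2.09 to 15.05, the sorted values of an array differed from the mean by at most 0.118, and no further scaling was applied. Of the probe sets 34958 had a single symbol, 932 several and 9211 none. One probe set per gene, that with the highest mean, gave 18193 genes, and 27 members had several. No column was left without a sample (0).

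Tests used lmFit and eBayes of limma 3.58.1 (R 4.3.3). All 18193 genes entered the Benjamini-Hochberg adjustment, and an adjusted p under 0.05 passed. Fits used cell means, hour as a block at matched hours, or slopes on log2 hours. Arrays were paired by the labelled hour, and replicate numbers only name arrays. The fits were tested on simulated data.

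The members, gene lists and role groups were chosen with earlier results of these data known. The rule named Myc, called members and the 3 largest values per comparison, up to 4 called genes of other lists (2 as values where none passed), and Malat1, Neat1, Alb and Socs3. Marker genes are reported by list. Promoter windows came from the RefSeq table of GRCm38.p6. Alternatives were other scalings, a filter on dim genes, another variance model, all probe sets, other arrays or time scales and each array or pair left out, and the nuclear RNA covariate, the fit without the 10 h array and the CACGCG search were added after seeing the data. For members with several probe sets, all shared the direction in 2 of 2 calls at matched hours, 4 of 4 under IL-6 plus HGF and 3 of 3 in control. Of all 27 such members, called or not, the probe sets shared the direction for 19 at matched hours. They did so for 21 under IL-6 plus HGF and 21 in control. The counts of members by sign used only the probe set with the highest mean. For the remaining members another probe set had the opposite sign. A shared direction did not mean a like size. The other probe set of Ddx21 had slopes of -0.03 in control and -0.05 under IL-6 plus HGF. Other probe sets of Rrp1b and Nop56 had slopes of -0.22 to -0.14 in control. Under IL-6 plus HGF, that of Noc2l had -0.08, and those of Rrp1b and Heatr1 had -0.35 to -0.22.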

Additional observations from a re-analysis of the deposited data

Results flagged for a closer look

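Single arrays that stood apart from the rest of their group in a member were looked for in 126 sets of values, the 42 members in the controls at 0 to 24 h, IL-6 and IL-6 plus HGF. A gap test flagged 7 of them (5.56%). For unordered values, chance flags about 1 in 20. Here the values were ordered in time, many members fell with time, and all members share the same arrays, so that rate is only nominal. Of the 7, 5 were the IL-6 plus HGF array at 24 h, which was low in Rrp9 (9.27, next array 9.54), Polr1c (10.40, next 10.62), Ltv1 (10.02, next 10.23), Noc2l (8.50, next 8.87) and Noc4l (9.98, next 10.29). Nolc1, a chaperone of snoRNPs, was high in the control at 0 h (10.07, next 9.69). Ltv1, a late small-subunit factor, was low with IL-6 at 3 h (10.26, next 10.36).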

How the results depend on the processing

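At matched hours, 4 members were called higher. The count was 8 with an intensity trend and robust variance, 12 with 4 cells over 17 arrays, 0 with no block for the hour, 0 with the nuclear RNA covariate, and 0 to 1 when a pair was left out. The 6 members falling under IL-6 plus HGF became 10 with each array centred on its median, 10 with genes under the 40th percentile left out, 10 with the other variance model, 10 on hours, 0 without the 24 h arrays, and 0 to 12 when 1 array was left out. The 6 falling in control became 11 after centring, 11 with the filter, 11 with the other variance model, 3 without the 24 h array, and 0 to 3 when 1 array was left out. The cause was not tested. The other comparisons kept 0 calls in either direction under the alternatives run. Over the alternatives, member medians kept their sign at matched hours (0.06 to 0.18), under IL-6 plus HGF (-0.13 to -0.08) and in control (-0.13 to -0.08). They changed sign in the other 4 comparisons: with IL-6 alone (-0.059 to 0.1318), at 5 to 7 h (-0.0014 to 0.0401), in the slope difference (-0.0234 to 0.0168) and at -5 h (-0.1023 to 0.0976). Myc, not called, changed sign in several settings: with IL-6 it ran from -0.0513 to 0.108 when 1 array was left out, at 5 to 7 h from -0.0464 to 0.25, and in the slope difference from -0.151 to 0.16, with -0.198 without the 24 h arrays, and the array at -5 h was -0.0553 against the controls at 0 and 4 h. Without 1 array or pair, Myc ran from 0.03311 to 0.3279 at matched hours, from -0.3167 to -0.005678 under IL-6 plus HGF and from -0.1849 to -0.09242 in control. With 1 array per condition and hour, groups of 1 to 8 arrays in the comparisons limit the precision.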
